A study of Homo sapiens with 6 samples.

Results

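Plasminogen activators and matrix metalloproteinases are the 2 main groups of secreted and cell-surface proteases that cut the extracellular matrix. The 9 genes described here were listed by name, with earlier results of these libraries known, and are 9 of the 60664 gene IDs in the table of read counts. They are the urokinase activator PLAU, its receptor PLAUR, the tissue-type activator PLAT, the serpin SERPINB5 (maspin), the metalloproteinases MMP7, MMP14 and MMP15, and the tissue inhibitors TIMP1 and TIMP2. All 9 were among the 16102 genes with enough counts to be tested. RNA came from the human colorectal cancer line HCT-8, transfected with a hairpin plasmid directed at PNISR (shPNISR, 3 libraries) or with a control plasmid (shNC, 3 libraries). The series was designed to ask how PNISR, a serine and arginine rich nuclear protein, acts on alternative splicing, and the values here are read counts per gene, so splice forms were not analysed here. The labels give neither the time after transfection nor any sign of separate cultures, so the p-values measure the spread between these libraries, which may be technical.

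As background, urokinase and tissue-type activator both cleave plasminogen into the broad protease plasmin, urokinase while bound to its receptor at the cell surface and tissue-type activator mainly on fibrin. Serpins trap both activators, and plasmin can in turn activate secreted metalloproteinase precursors. MMP14 and MMP15 are anchored in the plasma membrane, and MMP7 (matrilysin) is a small secreted enzyme made by epithelial cells. TIMPs block the active site of many, but not each of all, metalloproteinases. TIMP2 also helps MMP14 to activate MMP2. In colorectal tumours PLAU, PLAUR and MMP7 are well known for high expression.

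The region before the RefSeq transcription start is shown for the 3 members in which it held an AP-1 motif, so that the matches can be read in place. RefSeq start sites on GRCh38.p14 were found for 7 of the 9 genes, with PLAT and TIMP2 not matched, and the 250 bases before each start were searched on both strands. The capitals mark TGANTCA, the AP-1 motif, and each sequence runs 5′ to 3′ on the strand of its gene.
MMP7, chr11:102530748-102530997, minus strand: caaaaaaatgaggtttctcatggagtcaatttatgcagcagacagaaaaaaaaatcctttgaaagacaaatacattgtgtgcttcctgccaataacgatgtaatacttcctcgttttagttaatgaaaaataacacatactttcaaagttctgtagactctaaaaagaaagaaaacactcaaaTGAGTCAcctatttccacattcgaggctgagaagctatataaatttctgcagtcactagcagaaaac
PLAUR, chr19:43670170-43670419, minus strand: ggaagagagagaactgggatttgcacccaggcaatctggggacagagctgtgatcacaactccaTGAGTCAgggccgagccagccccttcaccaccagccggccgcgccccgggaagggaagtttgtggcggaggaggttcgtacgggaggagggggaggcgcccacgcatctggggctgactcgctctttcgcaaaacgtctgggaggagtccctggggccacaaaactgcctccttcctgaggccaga
SERPINB5, chr18:63476708-63476957, plus strand: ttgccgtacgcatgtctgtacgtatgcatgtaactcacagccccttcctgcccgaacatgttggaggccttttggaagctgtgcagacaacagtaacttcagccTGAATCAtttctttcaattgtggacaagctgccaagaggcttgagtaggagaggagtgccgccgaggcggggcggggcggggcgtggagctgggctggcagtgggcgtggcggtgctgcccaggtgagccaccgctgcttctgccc
The match began at -67 from the start in MMP7, at -186 in PLAUR and at -146 in SERPINB5. RefSeq starts differ from the outer ends of the GENCODE genes given below: all 250 bases of the PLAUR window, 197 of the SERPINB5 window and 6 of the MMP7 window lie inside the GENCODE gene.

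The AP-1 motif was in this window for 3 of the 7 genes, against 6.57% of the 35116 promoters of the same length in the RefSeq table. Neither window of PLAU, which has 2 RefSeq starts, held it, nor did those of MMP14, MMP15 and TIMP1. The Sp1 motif GGGCGG was found for 5 of the 7 genes (PLAU, MMP14, MMP15, SERPINB5 and TIMP1), and 42.6% of all promoters held it. Of the other motifs, the TATA box TATAAA was found for MMP7, at -30 (10.7% of all promoters). The ETS motif GAGGAAG was found for PLAU and MMP7 (11.2%), the TCF/LEF motif CTTTGNT for PLAU (13.2%) and the NF-kB motif for 0 of the 7 (1.73%). Each motif was searched as a single pattern, so sites of another form were not counted. The percentages are per promoter, whereas the member counts are per gene. The 7 genes had 8 promoters, because PLAU has 2. A match of letters is a description of the window, and binding was not measured.

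Total counts ranged from 15703210 to 17299847 in shPNISR and from 15049485 to 17977803 in shNC. PNISR, the targeted gene, had 313, 333 and 450 counts in shPNISR 1 to 3 and 1002, 776 and 943 counts in shNC 1 to 3 (log2 fold change -1.33 ± 0.15 SE). Of 10 colorectal epithelial markers, 9 were detected well enough to be tested, with KRT8 the most abundant and KRT20 near 0, at 0.346 ± 0.0769 CPM in shPNISR and 0.123 ± 0.130 CPM in shNC. CPM are read counts relative to library totals scaled by the TMM method. In bulk RNA, fewer cells of a type and less RNA per cell cannot be told apart. Of the 9, CDH17 and KRT19 were called higher and 7 did not pass: CDH17 was at 44.1 ± 2.26 CPM in shPNISR and 17.6 ± 2.97 CPM in shNC (log2 fold change 1.32, adjusted p = 5.74e-05 by edgeR), and KRT19 at 593 ± 67.1 CPM in shPNISR and 388 ± 94.6 CPM in shNC (0.61, adjusted p = 0.0365). The summed epithelial markers were at 4901 to 6144 CPM in shPNISR and 4376 to 5006 CPM in shNC. The 10 fibroblast markers summed to 25.2 to 29.6 CPM in shPNISR and 16.9 to 25.6 CPM in shNC, most of it COL1A1, with COL1A2 and FAP at 0 in every library. The 8 leukocyte markers summed to 5.98 to 7.44 CPM in shPNISR and 4.69 to 5.89 CPM in shNC, with PTPRC at 0, while LYZ among them was called lower, at 0.287 ± 0.217 CPM in shPNISR and 1.21 ± 0.287 CPM in shNC (adjusted p = 0.0337 by edgeR). The 6 endothelial markers summed to 1.84 to 2.54 CPM in shPNISR and 1.44 to 2.14 CPM in shNC, with TEK at 0. Their part in the results was not tested. The library shNC 2 lay apart from the other controls, with a score of 0.787 on the first principal component (44.8% of the variance), against 24.1, 24.6 and 16.9 in shPNISR 1 to 3 and -35.2 and -31.2 in shNC 1 and 3.

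Of the 9 members, 4 rose with shPNISR (PLAU, PLAUR, SERPINB5 and MMP7), none fell and 5 did not pass the test (two-sided quasi-likelihood test of edgeR, p adjusted by Benjamini-Hochberg over all 16102 genes, threshold 0.05). Over all tested genes 2.3% were called higher and 0.832% lower (371 and 134 genes), or 306 and 209 genes (1.91% and 1.31%) once GC content and length were corrected for. At an unadjusted p under 0.05, 8 members were higher, against 9.98% of all tested genes, and 0 were lower, against 7.79%. DESeq2 and limma voom also called 0 members lower (1.42% and 0.901% of all genes). The median log2 fold change of the members was 0.52, beside -0.01 for all tested genes, and 8 of 9 had a fitted value above 0, beside 47.9% of all tested genes. In 7 members every shPNISR library was above every shNC library, which was so in 11.5% of tested genes, and in 0 members every shPNISR library was below every shNC library (9.58%). Because the list was drawn up with earlier results known, the counts describe it and are not independent evidence of a direction. The count of members called higher was 8 without shNC 2 (7.78% of all genes called higher), 3 without shNC 1 (0.932%), 4 without shNC 3 (2.04%), and 2 without shPNISR 1 (0.811%), shPNISR 2 (1.33%) or shPNISR 3 (1.08%). It was 5 with DESeq2 (2.96%), limma voom (2.63%) and upper-quartile factors (2.49%), 7 where low counts were not filtered out (2.17%) and 4 with the replicate number as a block (2.42%). It was 3 with library totals (1.71%), 4 with GC content and length corrected for, 3 with that correction and the block (1.51%), and 2 with only 2 libraries per group, leaving out shNC 3 and shPNISR 2 (1.14%).

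**Figure D1:**
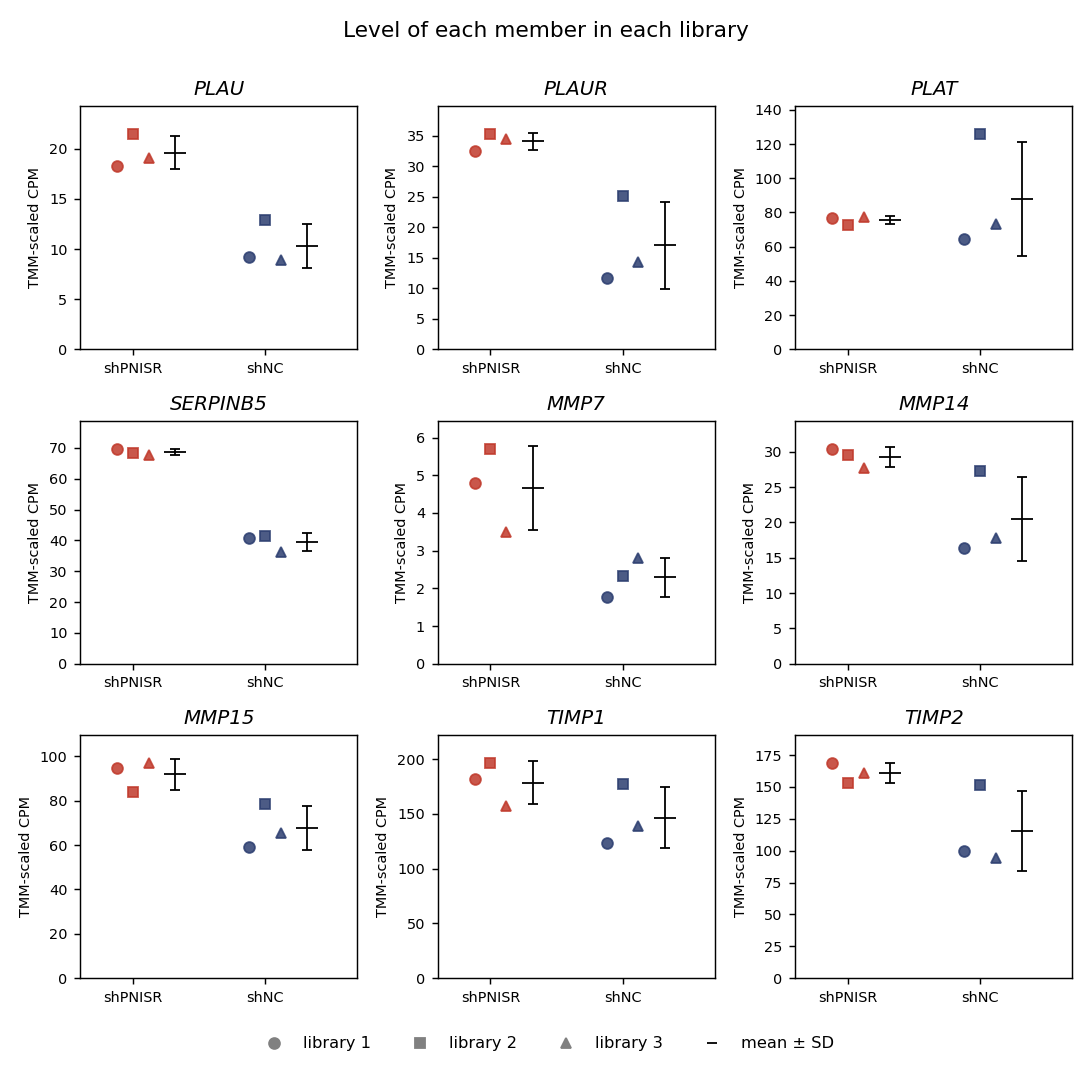
Level of each of the 9 members in TMM-scaled CPM (vertical axis, from 0), with 1 point per library (circle, square and triangle for libraries 1, 2 and 3) and the mean ± SD of 3 libraries beside them. The shPNISR points lie above all shNC points in every panel except PLAT, where shNC 2 is at 125.8 CPM, and TIMP1.

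PLAU encodes urokinase, the activator that works at the cell surface. Its level was 18.2, 21.5 and 19.1 CPM in shPNISR 1 to 3, against 9.16, 12.9 and 8.92 CPM in shNC 1 to 3. The groups did not overlap, and shNC 2 was the highest control. The log2 fold change was 0.93 ± 0.17 (SE), 1.90-fold, with an adjusted p of 0.00465 by edgeR. PLAU (ENSG00000122861) lies on the plus strand at chr10:73909177-73917497 in GRCh38 and shares 916 exonic bases with C10orf55 on the opposite strand. C10orf55 had 2 to 4 counts in any library, beside 134 to 346 for PLAU, but without a known strand setting reads in the shared bases cannot be told apart.

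PLAUR, the receptor that holds urokinase on the membrane, was measured at 32.6, 35.3 and 34.5 CPM in shPNISR 1 to 3, against 11.7, 25.1 and 14.4 CPM in shNC 1 to 3. Every shPNISR library was higher than every control, and shNC 2 stood between the groups. PLAUR (ENSG00000011422, minus strand, chr19:43646095-43670547) rose by 1.00 ± 0.22 on the log2 scale, 2.01-fold (adjusted p = 0.0309 by edgeR). The call ended without any 1 of the shPNISR libraries (adjusted p = 0.1 without shPNISR 1, 0.0927 without shPNISR 2 and 0.0968 without shPNISR 3). Without shNC 2 the log2 fold change was 1.39 (adjusted p = 4.13e-06), and over all 18 alternatives the adjusted p ranged from 2.7e-08 to 0.1.

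The other activator, PLAT, was not called in either direction. Tissue-type activator mRNA was at 76.8, 72.9 and 77.3 CPM in shPNISR 1 to 3, against 64.5, 125.8 and 73.5 CPM in shNC 1 to 3. The 3 shPNISR libraries lay close together, and the spread came from shNC 2, with 1944 counts beside 1169 and 1103 in the other controls. The log2 fold change was -0.22 ± 0.21 (adjusted p = 0.645 by edgeR) with all libraries and 0.13 without shNC 2 (adjusted p = 0.5), so its sign rested on that library. PLAT has the ID ENSG00000104368 (minus strand, chr8:42175233-42207724).

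SERPINB5, which encodes maspin, a serpin of epithelial cells that does not act as a classical protease trap, had the smallest spread relative to its mean among the 9 members in both groups. It was at 69.8, 68.2 and 67.8 CPM in shPNISR 1 to 3, against 40.6, 41.6 and 36.2 CPM in shNC 1 to 3. The 2 groups stood far apart, and shNC 2 lay beside the other controls. SERPINB5 (ENSG00000206075, plus strand, chr18:63476761-63505085) rose by 0.80 ± 0.12 on the log2 scale, 1.74-fold, with the lowest adjusted p of the members, 0.000694. It was the only one of the 9 whose call held in all 18 alternatives (adjusted p from 5.18e-08 to 0.0123).

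Among the metalloproteinase members the secreted MMP7 was the least abundant and had the largest fold. The counts were 81, 92 and 57 in shPNISR 1 to 3 and 32, 36 and 42 in shNC 1 to 3, which came to 4.80, 5.71 and 3.50 CPM in shPNISR and 1.77, 2.33 and 2.80 CPM in shNC. The groups did not overlap, but shPNISR 3 was closer to shNC 3 than to shPNISR 2. MMP7 (ENSG00000137673, minus strand, chr11:102520508-102530753) rose by 1.03 ± 0.26 on the log2 scale, 2.04-fold (adjusted p = 0.0392 by edgeR). The call ended without shNC 1 (adjusted p = 0.21), shPNISR 1 (0.162), shPNISR 2 (0.179) or shPNISR 3 (0.0515) and with library totals (0.0605), and the adjusted p over all alternatives ran from 0.00781 to 0.21.

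MMP14 (MT1-MMP), the membrane enzyme that activates MMP2, was at 30.4, 29.6 and 27.7 CPM in shPNISR 1 to 3, against 16.3, 27.3 and 17.8 CPM in shNC 1 to 3. The groups were separated only narrowly, because shNC 2 was almost level with shPNISR 3. MMP14 (ENSG00000157227, plus strand, chr14:22836557-22849027) had a log2 fold change of 0.52 ± 0.17 and did not pass (adjusted p = 0.11 by edgeR), whereas without shNC 2 it was 0.78 (adjusted p = 0.000921). MMP15 (MT2-MMP), its membrane-anchored relative, was at 94.6, 84.0 and 96.8 CPM in shPNISR 1 to 3, against 59.3, 78.7 and 65.3 CPM in shNC 1 to 3. Its groups did not overlap, with shNC 2 again the highest control. The log2 fold change of MMP15 (ENSG00000102996, plus strand, chr16:58025566-58046901) was 0.44 ± 0.12 and just missed the threshold (adjusted p = 0.0586 by edgeR). It passed with DESeq2 (0.0362), limma voom (0.0496), upper-quartile factors (0.0482) and without shNC 2 (0.00396), and with GC content and length corrected for it was 0.21 (adjusted p = 0.274). MMP15 transcripts had the highest GC content of the members, 66.0%, beside a median of 49.0% for tested genes.

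Both inhibitors were more abundant than any of the enzymes. TIMP1, a secreted inhibitor of most metalloproteinases, was at 181.9, 196.2 and 157.1 CPM in shPNISR 1 to 3, against 123.3, 177.3 and 138.5 CPM in shNC 1 to 3. The groups overlapped, with shNC 2 above shPNISR 3. TIMP1 (ENSG00000102265, plus strand, chrX:47582313-47586789) had a log2 fold change of 0.29 ± 0.13 (adjusted p = 0.264 by edgeR), 0.11 with GC content and length corrected for (0.644) and 0.44 without shNC 2 (0.0213). TIMP2, the partner of MMP14, had 2847, 2464 and 2620 counts in shPNISR 1 to 3, against 1812, 2338 and 1417 counts in shNC 1 to 3. In CPM the groups did not overlap, but the lowest shPNISR library, at 152.8, was just above shNC 2, at 151.4. TIMP2 (ENSG00000035862, minus strand, chr17:78852977-78925387) had a log2 fold change of 0.48 ± 0.15 (adjusted p = 0.0974 by edgeR), and 0.72 without shNC 2 (0.000296). It shares 367 exonic bases with AC022966.1 on the opposite strand (3 to 10 counts in any library) and 198 with CEP295NL (0 to 2 counts), beside 1417 to 2847 counts for TIMP2.

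**Figure D2:**
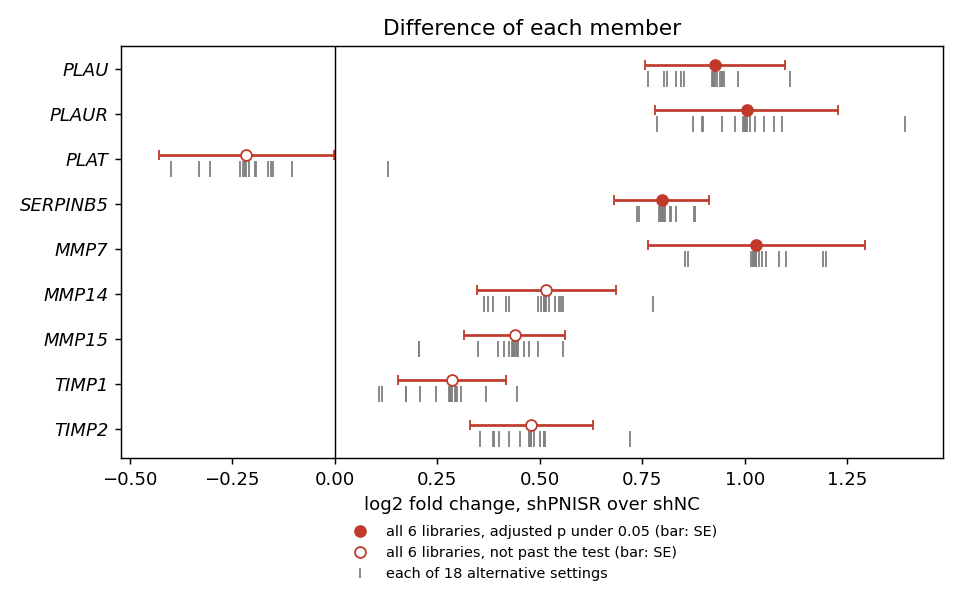
Log2 fold change of shPNISR over shNC for each member (horizontal axis) with all 6 libraries (circle, with its SE) and under each of 18 alternative settings (grey ticks); filled circles passed at an adjusted p under 0.05. SERPINB5 has the narrowest range of ticks, from 0.74 to 0.88, and PLAT is the 1 member with ticks on both sides of 0.

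The library shNC 2 divided the members. It was above both other controls in 8 of the 9, against 37.4% of all tested genes, with MMP7 the exception. Measured from the mean of shNC 1 and shNC 3 on the log2 scale, the mean of shPNISR lay 0.78 higher for MMP14, 0.72 for TIMP2 and 0.44 for TIMP1, where shNC 2 lay 0.68, 0.64 and 0.44 higher. For PLAUR the distances were 1.40 in shPNISR and 0.96 in shNC 2, for PLAU 1.11 in shPNISR and 0.51 in shNC 2, and for MMP15 0.56 in shPNISR and 0.34 in shNC 2. For SERPINB5 they were 0.84 in shPNISR and 0.12 in shNC 2, and for MMP7 1.04 in shPNISR and 0.07 in shNC 2. In these 2 genes shNC 2 thus lay near the other controls, although the MMP7 controls were not equally far from shPNISR. PLAT showed the opposite pattern, with 0.14 in shPNISR and 0.87 in shNC 2. What part the position of shNC 2 plays in these values was not tested.

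**Figure D3:**
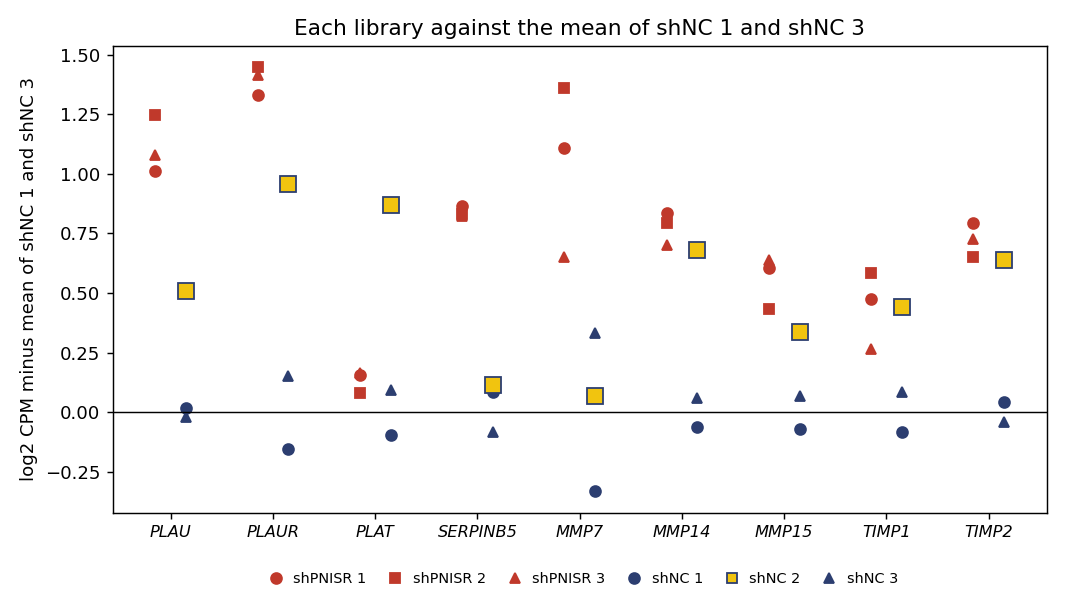
Level of each member in each library as log2 CPM minus the mean of shNC 1 and shNC 3 (vertical axis), with shPNISR in red, shNC in blue and shNC 2 as a yellow square. The yellow square lies near the red points for MMP14, TIMP1 and TIMP2, near the blue points for SERPINB5 and MMP7, and above all others for PLAT.

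Levels of different genes were compared per kilobase of exon, as CPM per kb. The length was that of all annotated exons of a gene merged, so the order of close genes depends on that choice. In shPNISR the order was TIMP1 (115.8 ± 12.8, SD, n = 3), TIMP2 (28.5 ± 1.40), MMP15 (20.8 ± 1.55), SERPINB5 (17.4 ± 0.259), PLAT (11.4 ± 0.359), PLAUR (7.66 ± 0.315), PLAU (6.65 ± 0.564), MMP14 (6.55 ± 0.312) and MMP7 (2.01 ± 0.478). Only PLAU and MMP14 overlapped among neighbours in that order. In shNC the order was TIMP1 (95.0 ± 18.1), TIMP2 (20.5 ± 5.57), MMP15 (15.3 ± 2.24), PLAT (13.3 ± 5.01), SERPINB5 (10.0 ± 0.733), MMP14 (4.59 ± 1.34), PLAUR (3.83 ± 1.60), PLAU (3.50 ± 0.752) and MMP7 (0.989 ± 0.222). TIMP2, MMP15, PLAT and SERPINB5 overlapped with their neighbours there, as did MMP14, PLAUR and PLAU with theirs. PLAT thus stood above SERPINB5 by mean in shNC, where their libraries overlapped, and below it in shPNISR, where they did not.

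Ratios of 2 genes within a library do not depend on how libraries are scaled. The log2 ratio of PLAU to PLAT counts was -2.07, -1.76 and -2.01 in shPNISR 1 to 3, against -2.81, -3.29 and -3.04 in shNC 1 to 3. Urokinase mRNA was thus higher relative to tissue-type activator mRNA in every shPNISR library, by 1.10 on the log2 scale (exact permutation test, two-sided, p = 0.1, the smallest that 3 against 3 allows, and 0.5 adjusted over the 5 ratios computed). The ratio of MMP14 to its partner TIMP2 was -2.46 ± 0.08 in shPNISR and -2.50 ± 0.11 in shNC (mean ± SD, exact p = 0.6). MMP14 to MMP15 was -1.65 ± 0.15 in shPNISR and -1.75 ± 0.20 in shNC (exact p = 0.5), and TIMP1 to TIMP2 was 0.15 ± 0.20 in shPNISR and 0.36 ± 0.17 in shNC (exact p = 0.3). The groups overlapped in these last 3 ratios.

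The rest of the plasminogen system was read from a list of 30 other genes, of which 23 were tested. Of these 6 rose, none fell and 17 did not pass, with a median log2 fold change of 0.27. Over all tested genes 2.3% were called higher and 0.832% lower. At an unadjusted p under 0.05, 9 of the 23 were higher and 0 lower, against 9.98% and 7.79% of all tested genes. DESeq2 and limma voom called 0 of the list lower (1.42% and 0.901% of all genes). Inhibitors made up 4 of the 6. SERPINF2, which encodes the plasmin inhibitor alpha-2-antiplasmin, was at 6.43 ± 0.458 CPM in shPNISR and 2.41 ± 0.952 CPM in shNC (log2 fold change 1.42 ± 0.26, adjusted p = 0.00458 by edgeR), and its call held in all 18 alternatives. SERPINA5, a serpin that inhibits protein C and urokinase, rose by 1.17 ± 0.27. SERPINE2 (protease nexin 1), which inhibits thrombin and urokinase, rose by 0.52 ± 0.11, and SPINT1, an inhibitor of matriptase and of the activator of hepatocyte growth factor, by 0.49 ± 0.12. The other 2 were ANXA2 (0.46 ± 0.12) and S100A10 (0.52 ± 0.12), whose proteins form a cell-surface complex that binds plasminogen and tissue-type activator. ANXA2 was at 728 ± 85.3 CPM in shPNISR and 530 ± 14.6 CPM in shNC.

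Several of these calls ended when 1 library was left out, which also leaves fewer libraries for the test. The log2 fold change of SERPINE2 then ran from 0.47 to 0.56. Why the calls ended was not tested. Without shNC 2, 9 genes of the list were called higher (7.78% of all genes), and without shNC 3, 5 were (2.04%). The count was 1 without shNC 1 (0.932%), shPNISR 1 (0.811%) or shPNISR 2 (1.33%), and 3 without shPNISR 3 (1.08%). The calls of SERPINE2 and SERPINA5 ended without shNC 1 or any 1 shPNISR library, as did that of SPINT1. That of ANXA2 ended without shNC 1, shNC 3, shPNISR 1 or shPNISR 2, and that of S100A10 without shNC 1, shPNISR 1 or shPNISR 2. Correcting for GC content and length ended the calls of S100A10 (0.36, adjusted p = 0.0589) and SPINT1 (0.305, adjusted p = 0.0883). Plasminogen itself (PLG), the substrate of both activators, had 0 counts in all 6 libraries, which allows up to 3 counts per library, or 0.167 to 0.199 CPM, from counting error alone. SERPINB2, a serpin that inhibits urokinase, was also at 0 in every library.

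Of 20 other matrix metalloproteinases 7 were tested, and 1 of them, MMP17, rose, none fell and 6 did not pass (median log2 fold change 0.33). Over all tested genes 2.3% were called higher and 0.832% lower. At an unadjusted p under 0.05, 3 of the 7 were higher and 0 lower, against 9.98% and 7.79% of all tested genes. DESeq2 and limma voom called 0 of the 7 lower. MMP17 (MT4-MMP), anchored in the membrane by a lipid, had 70, 43 and 53 counts in shPNISR 1 to 3 and 19, 28 and 28 counts in shNC 1 to 3, a log2 fold change of 1.10 ± 0.30 (adjusted p = 0.0486 by edgeR). That call ended without shNC 1, shPNISR 1 or shPNISR 3, and in 8 of 18 alternatives in all. Without shNC 2, 4 of the 7 were called higher (7.78% of all genes). Without shNC 1, shPNISR 1 or shPNISR 3 none of the 7 was (0.932%, 0.811% and 1.08% of all genes). The other 13 were too low to be tested, among them the collagenase MMP1, with at most 2 counts in a library, the gelatinase MMP9, with at most 5, and MMP13, with at most 11. MMP2, the gelatinase that MMP14 activates, was at 5.56 ± 1.56 CPM in shPNISR and 2.78 ± 1.60 CPM in shNC and did not pass (adjusted p = 0.119).

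Of the 12 further inhibitors, inducers and convertases 11 were tested, and TIMP4 rose, none fell and 10 did not pass (median 0.19). Over all tested genes 2.3% were called higher and 0.832% lower. At an unadjusted p under 0.05, 4 of the 11 were higher and 1 lower, against 9.98% and 7.79% of all tested genes. DESeq2 and limma voom called 0 of the 11 lower. TIMP4 was at 6.46 ± 0.786 CPM in shPNISR and 2.15 ± 1.33 CPM in shNC (log2 fold change 1.59 ± 0.31, adjusted p = 0.00957 by edgeR), and its call ended without shPNISR 3 (adjusted p = 0.0589). Its log2 fold change was 2.21 without shNC 2 and ran from 1.35 to 2.21 with 1 library left out. Without shNC 2, 2 of the 11 were called higher (7.78% of all genes) and 1 lower (746 of 16500 genes). Without shPNISR 3 none of the 11 was called (1.08% of all genes called higher). Among 17 tested ADAM and ADAMTS proteases none passed in either direction by edgeR, DESeq2 or limma voom. Beside 9.98% and 7.79% of all tested genes, 2 of the 17 were higher and 0 lower at an unadjusted p under 0.05 (median 0.09). The most abundant of them, ADAMTS1, a secreted protease that cleaves proteoglycans, was at 202 ± 23.6 CPM in shPNISR and 204 ± 115.5 CPM in shNC, with 337 CPM in shNC 2 and 137 CPM in both other controls. ADAM15, a membrane-bound disintegrin, was at 167 ± 17.4 CPM in shPNISR and 137.5 ± 2.62 CPM in shNC (adjusted p = 0.176). Without shNC 2, 3 of the 17 were called higher (7.78% of all genes), ADAMTS1 among them (0.56, adjusted p = 0.00465 by edgeR).

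Of 25 receptor partners and matrix substrates 23 were tested, of which 2 rose, none fell and 21 did not pass (median 0.17). Over all tested genes 2.3% were called higher and 0.832% lower. At an unadjusted p under 0.05, 6 of the 23 were higher and 0 lower, against 9.98% and 7.79% of all tested genes. DESeq2 and limma voom called 0 of the 23 lower. LAMB3, a laminin chain of the basement membrane, was among those that rose, at 77.9 ± 5.85 CPM in shPNISR and 44.8 ± 10.0 CPM in shNC (log2 fold change 0.80 ± 0.14, adjusted p = 0.00406 by edgeR). Its call held in all 18 alternatives. Without shNC 2, 6 of the 23 were called higher (7.78% of all genes), and without shPNISR 1 or shPNISR 3, 1 was (0.811% and 1.08%).

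**Figure D4:**
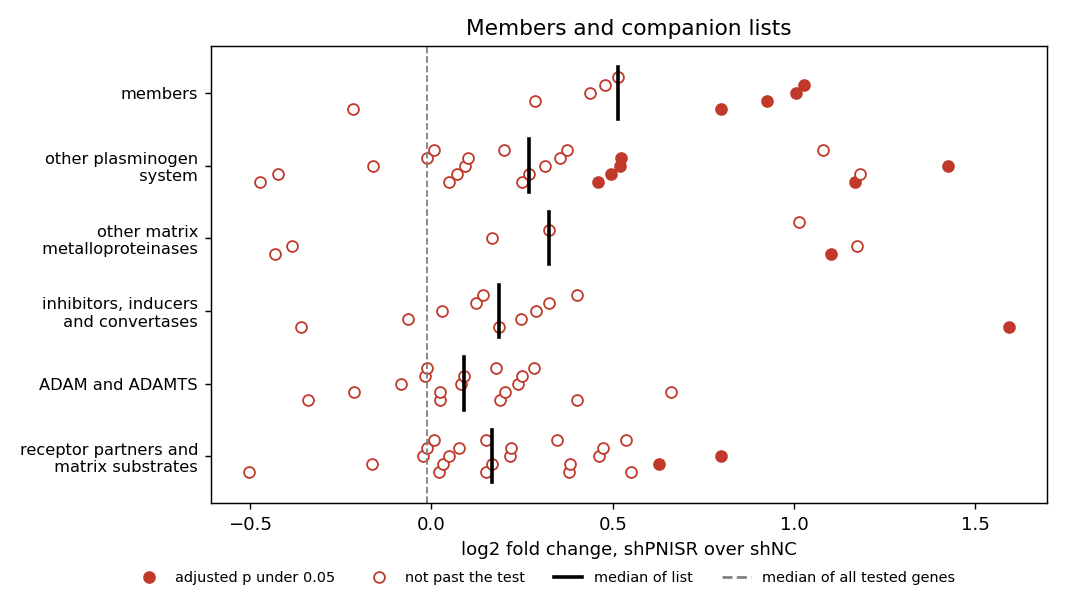
Log2 fold change of shPNISR over shNC (horizontal axis) for the 9 members and for the tested genes of 5 companion lists, 1 circle per gene, filled where the adjusted p was under 0.05; black bars are list medians and the dashed line is the median of all tested genes, -0.01. The member median is at 0.52 and those of the companion lists run from 0.09 to 0.33.

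The genes whose levels tracked PLAU and MMP7 most closely over the 6 libraries were found by Pearson's r of log2(CPM + 1) among 10171 genes with a mean of at least 10 CPM. For PLAU they were FGFR4 (r = 0.995), PIM3 (0.994), AREG (0.994), LGALS1 (0.993) and FZD7 (0.993). LGALS1, which encodes galectin-1, was at 84.3, 101.0 and 80.6 CPM in shPNISR 1 to 3, against 28.5, 52.8 and 31.2 CPM in shNC 1 to 3, with shNC 2 again the highest control. For MMP7 they were SLC39A11 (0.995), MRPS5 (0.994), FTH1 (0.994), PLPP2 (0.993) and CIB1 (0.993). Pearson's r takes no account of the size of a difference. SLC39A11 was at 25.3, 25.9 and 23.7 CPM in shPNISR 1 to 3, against 21.9, 22.7 and 23.1 CPM in shNC 1 to 3. FTH1, the ferritin heavy chain, was at 2115, 2387 and 1823 CPM in shPNISR 1 to 3, against 1461, 1612 and 1730 CPM in shNC 1 to 3, and shNC 3 was the highest control, as for MMP7. These values describe 6 points in 2 groups that share their libraries.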

How the data were processed

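RNA of HCT-8 cells was sequenced in 3 shPNISR and 3 shNC libraries. The authors deposited raw, unnormalized read counts for each Ensembl gene. Per the submitters' processing notes, HISAT2 2.0.4 and GRCh38 were used; counter, annotation release and strand setting: not given in the sources used here. All 6 columns matched a library by name. Symbols were found for 60463 of 60664 IDs, and positions, exon lengths and GC content came from GENCODE release 29. Replicates differed by more than sampling noise (chi-square per degree of freedom 8.99 to 20.6), so all were kept. Same-numbered libraries did not deviate together (r = 0.12, -0.08 and -0.15 for numbers 1 to 3), so no pairing was used.

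Genes were filtered with filterByExpr (minimum count 10, total 15), scaled by TMM and compared with edgeR 4.0.16 in R 4.3.3 (robust quasi-likelihood test, Benjamini-Hochberg adjustment at 0.05); SEs came from the fold change and the F statistic. On counts simulated for shPNISR against shNC over 15859 genes, the test recovered 94 of 100 changes of 2-fold and 46 of 100 of 1.5-fold, with 11 unchanged genes called. The changed genes were drawn only from genes above a minimum mean count, and no simulated library was set apart as shNC 2 was. The recovery rates therefore do not cover genes with low counts or a control that stands between the groups. Alternatives were other scalings, filters and tests (DESeq2 1.42.0, limma 3.58.1), a replicate block and leaving out each library; added after seeing the data were a loess correction for GC content and length (span 0.4), with and without the block, and 2 libraries per group. Ratios used a prior count of 0.5. The members and lists were chosen with earlier results of these data known. Named were all members, PNISR, list members that passed (or the 2 highest by CPM where none did) and the 5 genes most like PLAU and MMP7; 1 list member that passed and 1 of the 5 ratios are not reported here. Others named (C10orf55 and other overlapping genes, PLG, SERPINB2, CDH17, KRT19, LYZ, MMP1, MMP2, MMP9, MMP13, ITGA5, MRC2, HPN and MMP28) were chosen after their values were seen. Motifs were counted in promoters of RefSeq (GRCh38.p14). Figures were drawn with matplotlib 3.10.9.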

Additional observations from a re-analysis of the deposited data

How the results depend on the processing

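Direction held under all 18 alternatives for 8 of the 9 members; that of PLAT turned without shNC 2 (range with 1 library left out -0.40 to 0.13). The members called higher, 4 with all libraries, were 2 with 2 libraries per group, 7 with no low-count filter and 2 to 8 with 1 library left out. All genes called higher, 371 with all libraries, were 185 with 2 libraries per group, 241 with the GC content and length correction and replicate block, 642 with no low-count filter and 133 to 1284 with 1 library left out. Those called lower, 134, were 63 with 2 libraries per group, 229 with DESeq2, 209 with the GC content and length correction, 71 with library totals, 354 with no low-count filter and 30 to 746 with 1 library left out. The replicate block gave 390 higher and 118 lower genes and the same 4 members, and it ended the calls of ANXA2 and MMP17 among the other named genes (adjusted p = 0.0528 and 0.0591).

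With 2 libraries per group the call of PLAU ended (0.76) and so did that of MMP7 (1.02), which also ended with library totals (1.02) and with the GC content and length correction and replicate block (1.08). With no low-count filter MMP14 (0.51), MMP15 (0.43) and TIMP2 (0.47) passed, and MMP15 also passed with DESeq2 (0.44), limma voom (0.45) and upper-quartile factors (0.46). With 1 library left out the log2 fold changes ran from 0.83 to 1.11 for PLAU, 0.79 to 1.39 for PLAUR, 0.74 to 0.83 for SERPINB5, 0.85 to 1.20 for MMP7, 0.37 to 0.78 for MMP14, 0.35 to 0.56 for MMP15, 0.175 to 0.44 for TIMP1 and 0.35 to 0.72 for TIMP2. The ratio difference of MMP14 to TIMP2 ran from -0.0195 to 0.0835. The value for ADAMTS1, -0.01, turned to 0.0039 and 0.13 with the GC content and length correction without and with the replicate block, 0.12 with limma voom, 0.13 with the replicate block and 0.0082 with upper-quartile factors, and ran from -0.23 to 0.56 with 1 library left out. The causes were not tested. The paired form of the ratio test with 3 pairs cannot reach 0.05.

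Low counts limit the precision of MMP7, the member with the fewest, at 32 in its lowest library. They also limit that of MMP2, SERPINF2, TIMP4, MMP17, HPN and MMP28, at 29, 28, 20, 19, 12 and 7.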

Other observations

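Other genes of the lists, chosen after their values were seen, also had shNC 2 close to the shPNISR libraries. MMP2 was at 4.62, 4.71 and 7.36 CPM in shPNISR 1 to 3, against 1.60, 4.60 and 2.13 CPM in shNC 1 to 3. ITGA5, the alpha chain of a fibronectin receptor, was at 118, 99.1 and 105 CPM in shPNISR 1 to 3, against 63.7, 102 and 56.9 CPM in shNC 1 to 3. MRC2, the collagen receptor that binds urokinase and its receptor, was at 67.3, 58.9 and 71.4 CPM in shPNISR 1 to 3, against 36.7, 69.5 and 37.4 CPM in shNC 1 to 3. None of these 3 passed with all libraries (adjusted p = 0.119, 0.149 and 0.321 by edgeR). The membrane protease gene HPN (hepsin) had a log2 fold change of 1.08 ± 0.34 and MMP28 (epilysin) 1.17 ± 0.38, and neither passed (adjusted p = 0.0951 and 0.0991 by edgeR).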
